A study of Rattus norvegicus with 9 samples.

Results

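The expression of 10 genes of the CCN family and the YAP-TEAD pathway was followed in rat vascular smooth muscle cells. The genes were Ctgf, Cyr61, Nov, Wisp1 and Wisp2, which encode CCN proteins, the YAP targets Ankrd1 and Amotl2, the Hippo kinase gene Lats2, and Tead1 and Yap1. They were taken by symbol from the table of 26405 genes, all 10 were found, and all 10 were among the 11376 genes that averaged 1 FPKM or more over the 9 libraries and were tested. FPKM scales fragment counts to transcript length and library size, so levels of different genes can be set side by side. The cells, called S31, are wild-type primary cells of cardiac microvessels, taken from male Wistar Kyoto rats, and all of them went without serum for 48 h before treatment. The first treated set, columns PDGF-NS, received IGF-1 for 24 h by its sample records, and the second, columns IGF-NS, received PDGF-BB for 48 h by its records. Both recombinant factors, human IGF-1 and rat PDGF-BB, were given at 25 ng/ml. Control cells, columns LH-NS, received fresh serum-free medium and were harvested at 24 h. Records and column names thus contradict each other on which growth factor a treated set received, so the sets are called by their columns. Growth factor and harvest time cannot be told apart for the set harvested at 48 h. Each set held 3 libraries, and the labels do not say whether each was a culture of its own, so the p-values may reflect technical spread alone.

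CCN proteins are secreted into the matrix, where they bind integrins and heparan sulfate proteoglycans and modulate growth factor signalling. Among vascular cells Ctgf and Cyr61 are classical inducible genes of mechanical load, serum and TGF-beta. YAP, encoded by Yap1, and its relative TAZ, encoded by Wwtr1, are coactivators without a DNA-binding domain of their own. In the nucleus they bind TEAD transcription factors, which recognise the motif GGAATG. The kinases LATS1 and LATS2 of the Hippo pathway phosphorylate YAP and TAZ and keep them out of the nucleus. The pathway also acts back on itself, since Lats2 and Amotl2, a scaffold that retains YAP, are themselves YAP-TEAD targets. The coactivator's activity is set largely by its location and phosphorylation, which RNA levels do not measure.

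The table of RefSeq promoters held 4 of the 10 genes, and the 250 bases before each start are shown because 3 of these genes fell in both treated sets and 1, Yap1, was called in neither. Sequences run 5′ to 3′ on the gene's strand in the rat build GRCr8, and capitals mark GGAATG or its reverse complement CATTCC.
Ctgf, chr1:22624615-22624864, minus strand: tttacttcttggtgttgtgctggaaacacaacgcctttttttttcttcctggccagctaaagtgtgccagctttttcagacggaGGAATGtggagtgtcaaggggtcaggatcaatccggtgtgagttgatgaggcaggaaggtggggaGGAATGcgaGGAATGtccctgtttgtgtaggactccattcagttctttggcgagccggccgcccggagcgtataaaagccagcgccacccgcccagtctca
Cyr61, chr2:237225690-237225939, minus strand: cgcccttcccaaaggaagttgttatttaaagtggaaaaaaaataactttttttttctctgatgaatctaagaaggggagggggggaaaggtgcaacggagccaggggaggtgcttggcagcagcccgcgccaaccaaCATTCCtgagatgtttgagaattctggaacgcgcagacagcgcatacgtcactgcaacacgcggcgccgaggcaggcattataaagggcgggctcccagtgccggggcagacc
Amotl2, chr8:112182376-112182625, plus strand: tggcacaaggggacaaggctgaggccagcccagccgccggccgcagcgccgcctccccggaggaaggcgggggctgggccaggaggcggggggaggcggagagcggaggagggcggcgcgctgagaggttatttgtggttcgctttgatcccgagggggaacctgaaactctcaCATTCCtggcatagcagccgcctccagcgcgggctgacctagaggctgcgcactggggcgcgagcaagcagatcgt
Yap1, chr8:13451438-13451687, minus strand: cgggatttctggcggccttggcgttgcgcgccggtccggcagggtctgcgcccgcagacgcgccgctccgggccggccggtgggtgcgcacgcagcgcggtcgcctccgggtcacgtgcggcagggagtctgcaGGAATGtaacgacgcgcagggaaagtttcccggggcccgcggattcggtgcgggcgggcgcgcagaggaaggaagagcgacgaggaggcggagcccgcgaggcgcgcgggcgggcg

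The Ctgf window held 3 matches to GGAATG, all on the sense strand, which began 166, 101 and 92 bases before the start. Cyr61 and Amotl2 held 1 match each, on the antisense strand, beginning 113 and 76 bases before the start. Yap1 held 1 match as well, on the sense strand, 116 bases before its start. With both strands searched, 12.1% of all 33469 promoter windows of 250 bases held at least 1 match and 0.0807%, or 27 windows, held 3 or more. The CArG box, the motif of serum response factor, and TGANTCA, the motif of AP-1, were in none of the 4 windows. They were in 1.5% and 6.34% of all windows, so finding none in 4 says little about these genes. A sense TATAAA stood 31 bases before the start of Ctgf and 34 before that of Cyr61 (8.06% of all windows), and was not found in the windows of Amotl2 and Yap1. GC content was 53.2% for Ctgf and 54.0% for Cyr61, against 69.6% for Amotl2 and 76.0% for Yap1. These matches describe letters in the reference sequence and no binding was measured.

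Over all genes of the table, FPKM summed to between 616765 and 748000 per library, and the steps between low values put depth at 0.64 to 1.4 times that of control library 1, so the exact read depth is unknown. Across genes, Pearson r between libraries was 0.959 to 0.983 within a set and 0.901 to 0.947 between sets. The smooth muscle label was met by Tagln, a smooth muscle actin-binding protein, at a mean of 2105 FPKM in control, whereas Myh11, the smooth muscle myosin heavy chain, was low, with means of 0.654 FPKM in PDGF-NS, 0.405 in IGF-NS and 1.77 in control. The endothelial genes Cdh5, Kdr, Cldn5 and Emcn and the cardiac genes Myh6, Myh7 and Myl2 were listed at 0 in all 9 libraries.

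Of the CCN genes, Ctgf, Cyr61, Nov and Wisp1 fell in both treated sets relative to control, and Wisp2 was called in neither. Among all 10 genes, 8 were called lower and 0 higher in PDGF-NS, where 10.2% of all tested genes were called lower, 20.7% higher and 31.0% in either direction. In IGF-NS 8 were called lower and 0 higher as well, against 7.48% of all tested genes called lower, 17.4% higher and 24.9% in either direction. The same 8 genes were called in both comparisons, which share the control libraries. Every PDGF-NS library lay below every control library for 8 of the 10 genes, against 17.3% of all tested genes, and every IGF-NS library for 9 of them, against 11.6%. In bulk RNA, fewer cells of a type and less RNA per cell cannot be told apart.

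Ctgf (ENSRNOG00000015036), connective tissue growth factor or CCN2, had 410, 219 and 265 FPKM in the PDGF-NS libraries, 127, 200.4 and 235 in the IGF-NS libraries, and 2834, 2336 and 2843 in control. Every treated library was far below every control library. By mean level Ctgf was number 27 of the 11376 tested genes in control and number 320 in PDGF-NS and 520 in IGF-NS. The means were 298 ± 99.95 FPKM in PDGF-NS and 2671 ± 290.2 in control (SD, n = 3 each), with a log2 fold change of −3.21 ± 0.26 (SE, adjusted p = 2.4e-05). In IGF-NS the mean was 187 ± 55.2 FPKM and the log2 fold change −3.87 ± 0.26 (adjusted p = 2.5e-05). Fold changes here and below are on the log2(FPKM + 1) scale from limma, with p-values adjusted by the Benjamini-Hochberg method over the 11376 genes, and an adjusted p under 0.05 was called.

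Cyr61 (ENSRNOG00000014350), or CCN1, an immediate-early adhesive protein, had 37.6, 35.9 and 62.7 FPKM in PDGF-NS, 16.7, 36.3 and 47.4 in IGF-NS, and 353, 362 and 472 in control. The treated libraries again lay well apart from control, and those of the treated sets overlapped each other. The log2 fold change was −3.13 ± 0.34 in PDGF-NS (adjusted p = 0.00013) and −3.63 ± 0.34 in IGF-NS (adjusted p = 9.9e-05). The ratio of both genes overlapped between the sets: Ctgf stood 4.22 to 10.9 times above Cyr61 in PDGF-NS, 4.96 to 7.61 times in IGF-NS and 6.02 to 8.02 times in control.

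Nov (ENSRNOG00000008697), or CCN3, which in vascular cells is known to restrain smooth muscle growth, had 208, 173 and 177 FPKM in PDGF-NS, 217, 180.3 and 229 in IGF-NS, and 773, 616 and 792 in control. The sets did not overlap with control and overlapped with each other. The mean was 3.91-fold lower in PDGF-NS than in control (log2 −1.96 ± 0.15, adjusted p = 1.5e-05) and 3.48-fold lower in IGF-NS (−1.79 ± 0.15, adjusted p = 5.4e-05). Wisp1 (ENSRNOG00000007078), or CCN4, a target of Wnt signalling, had 96.4, 103 and 94.1 FPKM in PDGF-NS, 126, 164 and 214 in IGF-NS, and 285, 297 and 354.5 in control. Its 3 sets were separated from one another, with IGF-NS in the middle. Wisp1 changed by a log2 value of −1.66 ± 0.18 in PDGF-NS (adjusted p = 0.00012) and −0.92 ± 0.18 in IGF-NS (adjusted p = 0.0057).

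Wisp2 (ENSRNOG00000010666), or CCN5, is the CCN protein that lacks the carboxy-terminal module of the others and is known in the vessel wall as an inhibitor of smooth muscle growth. Its libraries held 256, 149 and 185 FPKM in PDGF-NS, 155, 105 and 157 in IGF-NS, and 253, 220.4 and 183 in control. PDGF-NS overlapped with control and IGF-NS lay just below it. The log2 fold change was −0.18 in PDGF-NS, with a 95% interval of −0.68 to 0.33 (adjusted p = 0.59), and −0.66 in IGF-NS, with an interval of −1.16 to −0.16 (adjusted p = 0.058). Under median ratio scaling the IGF-NS difference was called, at −0.82 with adjusted p = 0.028. Without PDGF-NS library 2 the PDGF-NS difference was 0.01. The sixth family member, Wisp3, was listed at 0 in all 9 libraries.

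**Figure D1:**
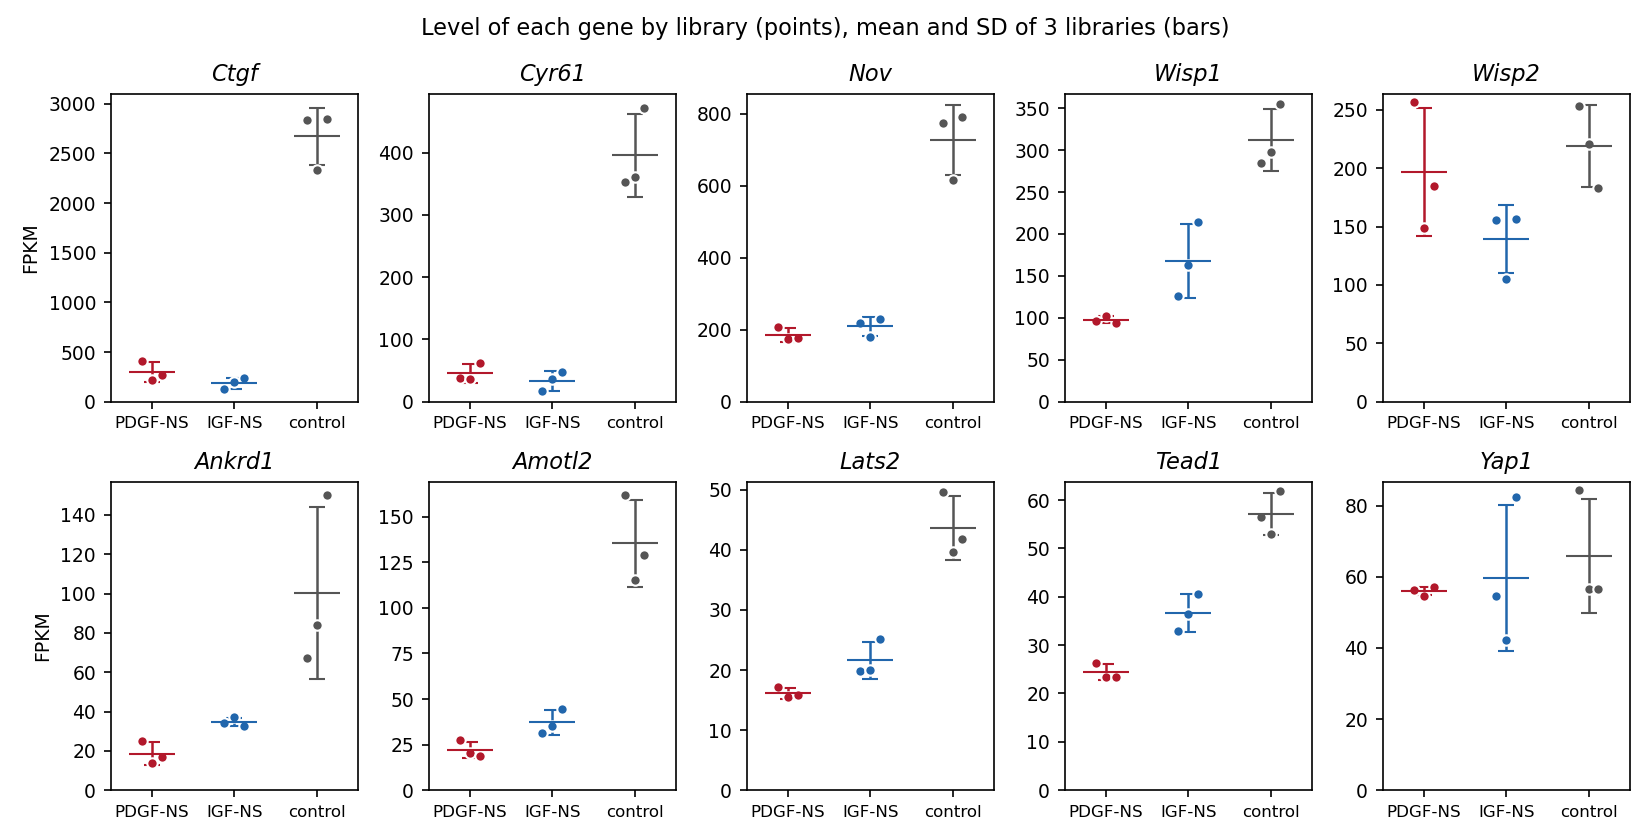
FPKM of each of the 10 genes on linear axes that start at 0, with 1 point per library and bars for the mean ± SD of 3 libraries in PDGF-NS, IGF-NS and control. In 8 panels every library of both treated sets lies below every control library. Taken singly, PDGF-NS lies below control for 8 of the 10 genes (17.3% of all tested genes) and IGF-NS for 9 (11.6%). The share of all tested genes for both sets at once was not computed. In the panels of Wisp2 and Yap1 the PDGF-NS and control points overlap.

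The order of the CCN levels differed between the sets. In PDGF-NS Ctgf led with a mean of 298 FPKM, followed by Wisp2 with 197, Nov with 186, Wisp1 with 97.8 and Cyr61 with 45.4, and the ranges of Ctgf and Wisp2, and of Wisp2 and Nov, overlapped. In IGF-NS Nov, Ctgf, Wisp1 and Wisp2 had means of 209, 187, 168 and 139 FPKM with ranges that overlapped between neighbours, and Cyr61 stood apart below them with 33.4. In control the order was Ctgf with 2671 FPKM, Nov with 727, Cyr61 with 396, Wisp1 with 312 and Wisp2 with 219, and of neighbours only the ranges of Cyr61 and Wisp1 overlapped. Cyr61 thus had the third highest mean of the CCN genes in control and the lowest in both treated sets, while Wisp2 was lowest in control.

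The 5 CCN genes together summed to 824 ± 168 FPKM in PDGF-NS, 737 ± 128 in IGF-NS and 4325 ± 433 in control (SD, n = 3 each). Ctgf made up 35.6 ± 4.51% of that sum in PDGF-NS, 25.2 ± 4.89% in IGF-NS and 61.7 ± 1.11% in control. Wisp2 made up 23.6 ± 1.75% in PDGF-NS, 19.1 ± 4.56% in IGF-NS and 5.11 ± 1.01% in control. Most of the CCN transcript level in control was thus Ctgf, and in the treated sets it was spread over 4 genes, since Cyr61 held 5.67 ± 2.16% in PDGF-NS, 4.42 ± 1.58% in IGF-NS and 9.16 ± 1.18% in control.

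**Figure D2:**
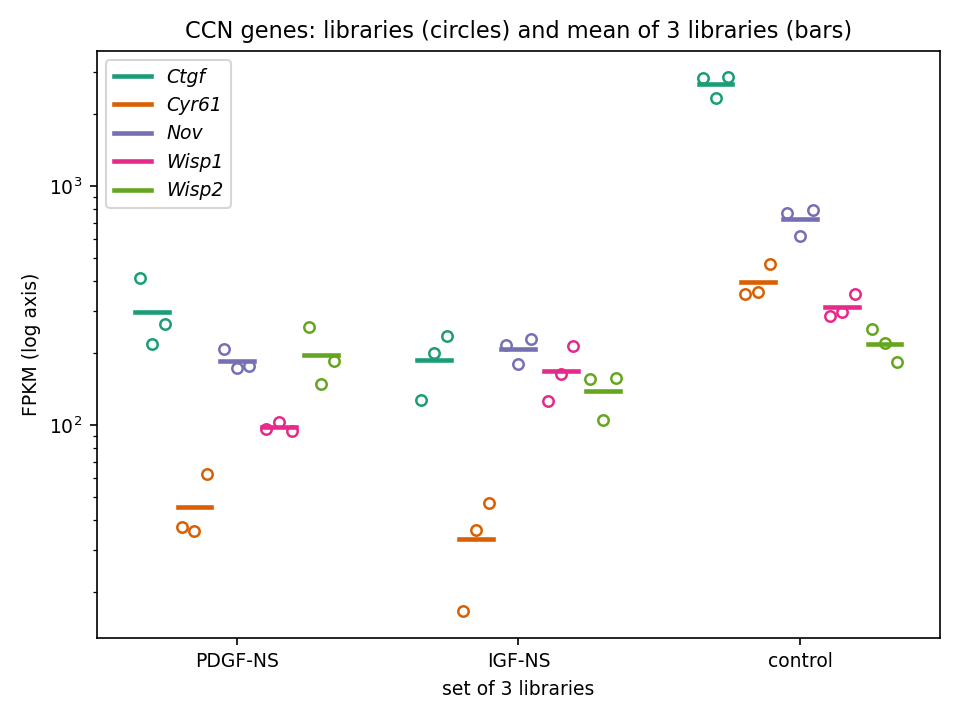
FPKM of the 5 CCN genes on a log axis, with circles for libraries and bars for the mean of 3 libraries in PDGF-NS, IGF-NS and control. The control set spans from 219 FPKM for Wisp2 to 2671 for Ctgf by mean, and in both treated sets 4 genes lie between 97.8 and 298 FPKM by mean, with Cyr61 below them.

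Ankrd1 and Amotl2, both direct YAP-TEAD targets, fell in both sets, and by mean they were lower in PDGF-NS than in IGF-NS. Ankrd1 (ENSRNOG00000018598), an ankyrin repeat protein of the nucleus and sarcomere best known from heart muscle, had 24.9, 13.9 and 17.0 FPKM in PDGF-NS, 34.3, 37.0 and 32.7 in IGF-NS, and 67.1, 84.2 and 150 in control. The 3 sets did not overlap, and control library 3 was well above the other controls. Ankrd1 changed by a log2 value of −2.32 ± 0.28 in PDGF-NS (adjusted p = 0.00022) and −1.43 ± 0.28 in IGF-NS (adjusted p = 0.0057). Without control library 3 both were still called (adjusted p = 0.00039 and 0.012).

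Amotl2 (ENSRNOG00000008487), angiomotin-like 2, a junctional scaffold that binds YAP, had 27.3, 20.1 and 18.9 FPKM in PDGF-NS, 31.5, 35.4 and 44.7 in IGF-NS, and 162, 115 and 129 in control. Its sets did not overlap either. Its mean was 6.12-fold lower in PDGF-NS than in control (log2 −2.56 ± 0.19, adjusted p = 1.3e-05) and 3.64-fold lower in IGF-NS (−1.84 ± 0.19, adjusted p = 0.00017). Lats2 (ENSRNOG00000010544), a kinase that inhibits YAP and TAZ, had 17.2, 15.5 and 15.8 FPKM in PDGF-NS, 19.8, 20.0 and 25.2 in IGF-NS, and 49.6, 39.6 and 41.8 in control. The treated libraries had less than any control library, and PDGF-NS was the lowest set. The log2 fold change of Lats2 was −1.37 ± 0.14 in PDGF-NS (adjusted p = 7.8e-05) and −0.98 ± 0.14 in IGF-NS (adjusted p = 0.001). Lats1, its paralog, had means of 36.9 ± 3.33 FPKM in PDGF-NS, 43.2 ± 2.25 in IGF-NS and 46.8 ± 2.93 in control, with log2 fold changes of −0.34 (adjusted p = 0.0495) and −0.11 (adjusted p = 0.52). The Lats1 call in PDGF-NS was lost without any 1 of PDGF-NS libraries 1 and 3 and control libraries 1, 2 and 3 (adjusted p of 0.059 to 0.16). It was also lost in a fit of only the 6 libraries (0.069), with the replicate number as a block (0.059) and without variances that follow the mean (0.065).

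Tead1, the DNA-binding partner, fell, whereas Yap1 was not called. Tead1 (ENSRNOG00000015488) had 26.3, 23.5 and 23.3 FPKM in PDGF-NS, 33.0, 36.4 and 40.6 in IGF-NS, and 56.5, 53.1 and 61.8 in control. The sets were fully separated, with the lowest levels in PDGF-NS. Its log2 fold change was −1.20 ± 0.12 in PDGF-NS (adjusted p = 9e-05) and −0.63 ± 0.12 in IGF-NS (adjusted p = 0.0056). Yap1 (ENSRNOG00000005933) had 56.3, 54.6 and 57.0 FPKM in PDGF-NS, 54.6, 42.3 and 82.4 in IGF-NS, and 84.4, 56.5 and 56.7 in control. All 3 sets overlapped, and the widest spread was that of IGF-NS (20.5 FPKM SD, against 16.1 in control and 1.23 in PDGF-NS). The log2 fold change of Yap1 was −0.20 in PDGF-NS, with a 95% interval of −0.72 to 0.31 (adjusted p = 0.54), and −0.17 in IGF-NS, with an interval of −0.68 to 0.35 (adjusted p = 0.64). These intervals leave room for a change of up to about 0.7 on the log2 scale in the lower direction, so no difference was detectable for Yap1 at this spread. Its sign in IGF-NS turned without control library 1 (0.02) and without IGF-NS library 2 (0.05).

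The relatives of both proteins were set beside them from a list of YAP partners and TEAD genes. Of 6 tested, 0 were called higher and 3 lower in PDGF-NS (median −0.26), and 1 higher and 3 lower in IGF-NS (median −0.69). Over all tested genes 20.7% were called higher and 10.2% lower in PDGF-NS (median 0.13), and 17.4% higher and 7.48% lower in IGF-NS (median 0.15). Wwtr1, encoding TAZ, was more abundant than Yap1 in every library, with 169 ± 10.7 FPKM in PDGF-NS, 103 ± 32.6 in IGF-NS and 149 ± 22.4 in control, and was called in neither treated set against control (log2 0.19, adjusted p = 0.52, and −0.57, adjusted p = 0.065). The list held 4 lower calls in IGF-NS under median ratio scaling, under quantile normalization and without IGF-NS library 3. The added call there was that of Wwtr1. The level of Wwtr1 was 2.75 to 3.25 times that of Yap1 in PDGF-NS, 1.56 to 1.94 times in IGF-NS and 2.06 to 2.53 times in control. Between the treated sets Wwtr1 was called higher in PDGF-NS than in IGF-NS (0.75, adjusted p = 0.03). That call was lost under the replicate block (0.061) and without IGF-NS library 1 (0.11), IGF-NS library 2 (0.097), PDGF-NS library 1 (0.083), PDGF-NS library 2 (0.092) or PDGF-NS library 3 (0.072). The 4 TEAD genes summed to 73.5 ± 4.23 FPKM in PDGF-NS, 96.4 ± 18.1 in IGF-NS and 130.1 ± 16.2 in control. Tead3 had log2 fold changes of −0.87 in PDGF-NS (adjusted p = 0.013) and −0.82 in IGF-NS (adjusted p = 0.022), and Tead4 of −0.65 (adjusted p = 0.013) and −1.11 (adjusted p = 0.0013). Tead2 had 19.1 ± 2.19 FPKM in PDGF-NS, 30.4 ± 8.25 in IGF-NS and 17.5 ± 4.09 in control. It was called higher in IGF-NS (0.75, adjusted p = 0.032) and not in PDGF-NS (0.14, adjusted p = 0.66), and the IGF-NS call was lost under median ratio scaling (0.074), under quantile normalization (0.06), with no filter (0.054), in a fit of only the 6 libraries (0.073), and without IGF-NS library 1 (0.1), IGF-NS library 3 (0.083), control library 2 (0.08) or control library 3 (0.1). The Tead3 call in IGF-NS was lost in a fit of only the 6 libraries (0.06) and without IGF-NS library 1 (0.08), IGF-NS library 2 (0.076) or control library 1 (0.056). The Tead4 call in PDGF-NS was lost without PDGF-NS library 3 (0.052). Vgll3, a cofactor that binds TEAD, fell in both sets, with means of 18.0 ± 1.64 FPKM in PDGF-NS, 24.3 ± 8.80 in IGF-NS and 74.5 ± 11.7 in control (log2 −1.98, adjusted p = 0.00021, and −1.63, adjusted p = 0.0013).

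**Figure D3:**
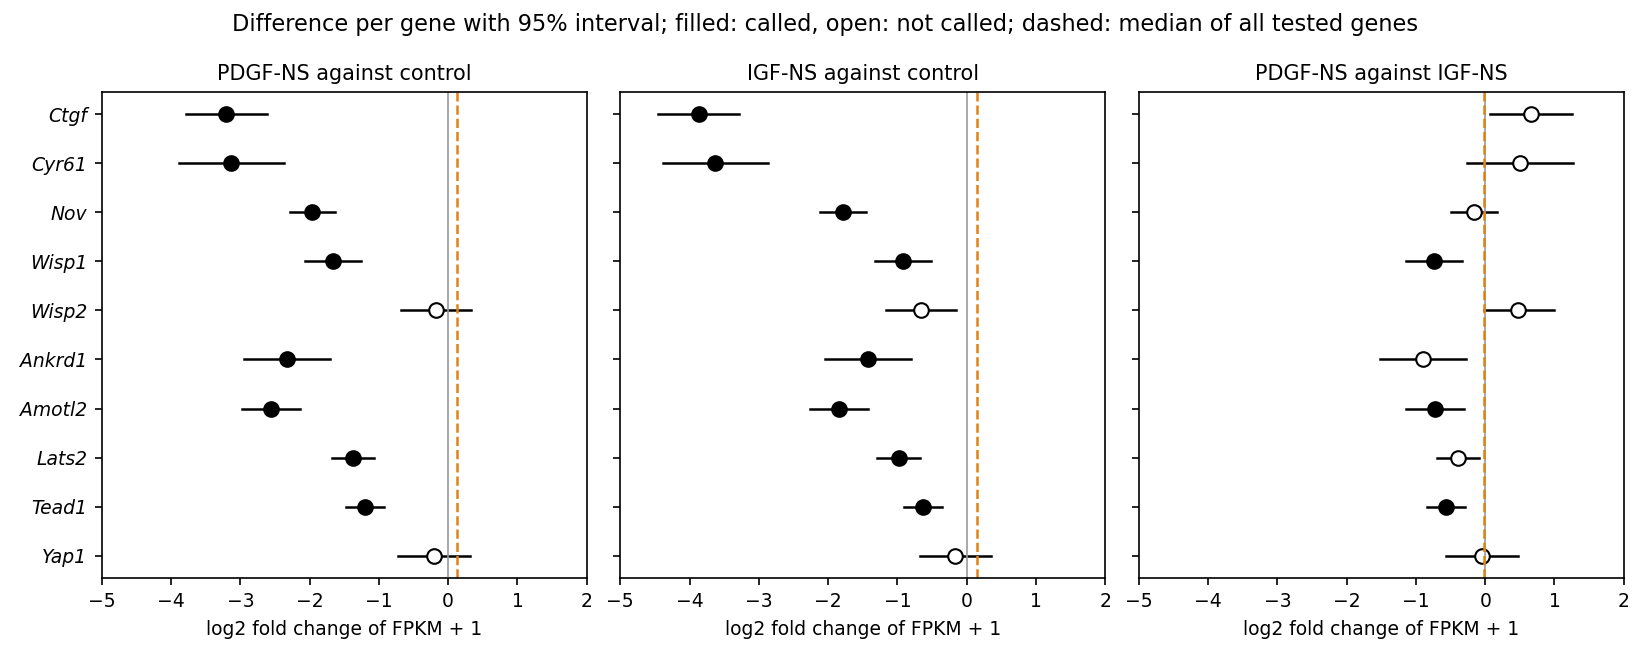
Log2 fold change of FPKM + 1 for each of the 10 genes in the 3 comparisons, as points with 95% intervals from limma. Filled points were called at an adjusted p under 0.05, and the dashed line is the median of all tested genes, 0.13 and 0.15 against control and −0.02 between the treated sets. The lowest points are those of Ctgf and Cyr61 in both comparisons with control, and the points of Yap1 lie near 0.

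Between the treated sets, PDGF-NS was lower than IGF-NS for Wisp1, Amotl2 and Tead1, so 3 of the 10 genes were called lower and 0 higher, against 7.55% of all tested genes called lower, 8.33% higher and 15.9% in either direction. The log2 fold change was −0.74 ± 0.18 for Wisp1 (adjusted p = 0.02), −0.73 ± 0.19 for Amotl2 (adjusted p = 0.027) and −0.57 ± 0.12 for Tead1 (adjusted p = 0.012), each lower in all 3 PDGF-NS libraries than in any IGF-NS library. Such separation was seen for 5 of the 10 genes and for 19.4% of all tested genes. Single libraries decided these calls. That of Wisp1 was lost without IGF-NS library 2 (0.052), PDGF-NS library 1 (0.058), PDGF-NS library 2 (0.05) or PDGF-NS library 3 (0.078). That of Amotl2 was lost without IGF-NS library 2 (0.057), IGF-NS library 3 (0.078), PDGF-NS library 2 (0.09) or PDGF-NS library 3 (0.11), and that of Tead1 without PDGF-NS library 3 (0.058).

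Ankrd1 and Lats2 lay in the same order without overlap but did not pass (−0.90 ± 0.28, adjusted p = 0.056, and −0.39 ± 0.14, adjusted p = 0.083). Both were called after rescaling to one common sum (0.03 and 0.028), and Ankrd1 was also called in a fit of only the 6 libraries (0.019) and without PDGF-NS library 1 (0.036). Ctgf and Cyr61 had values on the other side of 0, at 0.66 with a 95% interval of 0.07 to 1.25 (adjusted p = 0.12) and 0.50 with an interval of −0.26 to 1.27 (adjusted p = 0.37). For Nov the interval was −0.49 to 0.17, for Wisp2 −0.02 to 0.99 and for Yap1 −0.56 to 0.48, and none of these was called. No CCN gene other than Wisp1 was thus shown to differ between the treated sets.

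Other targets of YAP and TEAD moved down more often than up, with exceptions. Of 18 tested genes on a list of such targets without the 10 genes above, 2 were called higher and 11 lower in PDGF-NS, with a median log2 fold change of −0.62 (0.13 over all tested genes). In IGF-NS 2 were called higher and 10 lower, with a median of −0.60 (0.15 over all tested genes). The shares of all tested genes were 20.7% higher and 10.2% lower in PDGF-NS, and 17.4% higher and 7.48% lower in IGF-NS. With 1 library left out, the lower calls were 8 to 10 in PDGF-NS and 8 to 11 in IGF-NS. Under median ratio scaling 0 were called higher and 11 lower in IGF-NS. Ajuba and Ptpn14 were counted both on this list and on that of Hippo regulators. Crim1, a transmembrane regulator of BMP ligands, fell to 9.07 ± 1.59 FPKM in PDGF-NS and 12.7 ± 4.30 in IGF-NS, against 53.5 ± 8.82 in control (log2 −2.44, adjusted p = 4.9e-05, and −2.02, adjusted p = 0.00031). Tgfb2, a TGF-beta ligand, fell to 48.2 ± 17.4 FPKM in PDGF-NS and 133 ± 5.37 in IGF-NS, against 254 ± 24.5 in control (−2.42 and −0.92). Fjx1, a secreted kinase relative, changed by −1.94 and −1.83, and Nuak2, a kinase of the AMPK family, by −1.54 and −1.37 in PDGF-NS and IGF-NS. These 4 genes were called in both sets in every alternative that tested them, and Fjx1 was not tested with a minimum mean of 5 FPKM.

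Nt5e, the ecto-enzyme CD73 that makes adenosine, went the opposite way in the treated sets. It had 48.9 ± 10.1 FPKM in PDGF-NS, 1.63 ± 0.0791 in IGF-NS and 6.11 ± 0.965 in control, with log2 fold changes of 2.80 in PDGF-NS (adjusted p = 5.6e-06) and −1.43 in IGF-NS (adjusted p = 0.00047). The direct difference between PDGF-NS and IGF-NS was 4.23 (adjusted p = 1.7e-06). Ccdc80, a secreted matrix protein, also differed in direction, at −0.93 in PDGF-NS (adjusted p = 0.00058) and 0.55 in IGF-NS (adjusted p = 0.013), the second of which was lost under median ratio scaling (0.057). Between the treated sets its difference was −1.48 (adjusted p = 7.1e-05). Rbms3, an RNA-binding protein, was also lower in PDGF-NS than in IGF-NS (−1.35, adjusted p = 0.00033), with −0.99 in PDGF-NS (adjusted p = 0.0011) and 0.36 in IGF-NS (adjusted p = 0.12) against control. Gadd45a, a stress-inducible growth arrest gene, was the other target called higher in PDGF-NS (1.44, adjusted p = 0.012), where its libraries ranged from 41.2 to 143 FPKM. Birc5, which encodes survivin, a protein of dividing cells, was the other one called higher in IGF-NS (1.16, adjusted p = 0.045). That call was lost under median ratio scaling (0.07), quantile normalization (0.078), a pseudocount of 0.1 (0.052), no filter (0.085) and a fit of only the 6 libraries (0.053), and without IGF-NS library 2 (0.084), IGF-NS library 3 (0.12), control library 1 (0.13) or control library 3 (0.073).

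Genes of the Hippo kinase cassette and its upstream regulators were divided. Of 23 tested, 3 were called higher and 10 lower in PDGF-NS (median −0.10), and 2 higher and 5 lower in IGF-NS (median −0.06). Over all tested genes 20.7% were called higher and 10.2% lower in PDGF-NS, and 17.4% higher and 7.48% lower in IGF-NS. Without PDGF-NS library 3 the 10 lower calls were 6. Frmd6, a FERM-domain activator of the pathway, had 28.8 ± 7.00 FPKM in PDGF-NS and 22.2 ± 5.69 in IGF-NS, against 88.8 ± 19.8 in control (log2 −1.60, adjusted p = 0.00093, and −1.96, adjusted p = 0.00054). Ajuba, a LIM protein that inhibits LATS kinases and is itself a YAP target, had 7.50 ± 0.366 FPKM in PDGF-NS, 16.8 ± 3.42 in IGF-NS and 30.3 ± 5.81 in control (−1.86, adjusted p = 5.3e-05, and −0.81, adjusted p = 0.009), and differed between the treated sets (−1.05, adjusted p = 0.0029). Wwc1, the scaffold KIBRA, had 2.06 ± 0.187 FPKM in PDGF-NS, 5.40 ± 1.87 in IGF-NS and 7.89 ± 0.363 in control (−1.54, adjusted p = 0.00029, and −0.51, adjusted p = 0.083).

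Fat4, a giant cadherin, was at −1.15 in PDGF-NS (adjusted p = 0.0025) and −0.67 in IGF-NS (adjusted p = 0.04), and the IGF-NS call was lost with no filter, under the replicate block and without any 1 of the 6 libraries (0.066 to 0.1). Wwc2, a relative of Wwc1, fell by 1.14 in PDGF-NS (adjusted p = 0.00034) and by 0.96 in IGF-NS (adjusted p = 0.0017).

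The core kinase genes did not fall together. Stk3, which encodes MST2, was called higher in both sets (0.66, adjusted p = 0.0035, and 0.62, adjusted p = 0.0072). Stk4, which encodes MST1, was at −0.50 in PDGF-NS (adjusted p = 0.014) and −0.32 in IGF-NS (adjusted p = 0.093), and the PDGF-NS call was lost without PDGF-NS library 2 (0.052) or 3 (0.067). The adaptor genes Sav1 (−0.03 and 0.04) and Mob1a (0.10 and 0.03) and Nf2, the tumour suppressor merlin (0.11 and 0.30), were called in neither set. The other gene called higher in both was Mob1b, an adaptor of LATS kinases (0.48 and 0.51), and that call was lost in both sets under median ratio scaling (0.056 and 0.065). In PDGF-NS it was also lost under one common sum (0.055) and quantile normalization (0.052), and without PDGF-NS library 3 (0.075). Taok3, a kinase upstream of MST kinases, was called higher in PDGF-NS (0.66, adjusted p = 0.0035).

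Of the receptors and partners of CCN proteins, few were called in PDGF-NS. Of 10 tested, 2 were called higher and 1 lower in PDGF-NS (median 0.08), and 2 higher and 4 lower in IGF-NS (median −0.41). The PDGF-NS counts are near the shares of all tested genes (20.7% higher and 10.2% lower), and those in IGF-NS stand beside 17.4% higher and 7.48% lower. The lower calls in PDGF-NS were 3 under median ratio scaling, one common sum and quantile normalization, where the median was −0.05, −0.06 and −0.03. In IGF-NS the lower calls were 7 under quantile normalization, 6 under median ratio scaling, and 2 without control library 3 or without IGF-NS library 1. Itga6, the laminin receptor chain alpha 6, was the 1 called lower in PDGF-NS, with 2.21 ± 0.0960 FPKM there, 2.79 ± 1.10 in IGF-NS and 6.31 ± 1.77 in control (−1.16, adjusted p = 0.0056, and −0.97, adjusted p = 0.018). Its IGF-NS call was lost in a fit of only the 6 libraries (0.052) and without control library 3 (0.061) or IGF-NS library 1 (0.054). Itga5, the fibronectin receptor chain alpha 5, had 107 ± 3.07 FPKM in PDGF-NS, 48.2 ± 5.73 in IGF-NS and 62.9 ± 9.13 in control, with log2 fold changes of 0.76 (adjusted p = 0.0023) and −0.38 (adjusted p = 0.069) and a difference of 1.14 between the treated sets (adjusted p = 0.0004). Itgb3, a chain of the vitronectin receptor, was called higher in PDGF-NS (0.73, adjusted p = 0.01) and differed between the treated sets (1.09, adjusted p = 0.0022). Itgb5, which pairs with the alpha v chain, differed between them as well (0.96, adjusted p = 0.0038). Sdc4, a heparan sulfate proteoglycan of focal adhesions, had 120.0 ± 6.78 FPKM in PDGF-NS, 70.5 ± 13.8 in IGF-NS and 169 ± 37.3 in control (−0.47, adjusted p = 0.074, and −1.25, adjusted p = 0.0013). Itgb1, the common beta 1 chain, was at −0.41 in PDGF-NS (adjusted p = 0.066) and −0.87 in IGF-NS (adjusted p = 0.0033). Notch1, a receptor that binds Nov, was at 0.34 in PDGF-NS (adjusted p = 0.12) and was called higher in IGF-NS (0.66, adjusted p = 0.011). The other gene called higher in IGF-NS was Lrp6, a Wnt coreceptor (0.61, adjusted p = 0.0077; chosen after its values were seen). Lrp1, an endocytic receptor that binds Ctgf, was called in neither set (0.29 and −0.09). Integrins Itgam and Itgb2 did not pass the filter.

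Genes of serum response factor and its coactivators fell in both treated sets. Ctgf and Cyr61 are known to be induced through this factor as well, and whether it had a part in these data was not tested. Of 15 tested, 13 were called lower and 0 higher in each treated set. Over all tested genes 10.2% were called lower and 20.7% higher in PDGF-NS, and 7.48% lower and 17.4% higher in IGF-NS. The list had medians of −1.85 in PDGF-NS and −1.54 in IGF-NS, beside −1.81 and −1.21 for the 10 genes. The medians of all tested genes were 0.13 and 0.15. Tagln, Cnn1 and Myocd stood both on this list and on that of smooth muscle markers. The largest changes in PDGF-NS were those of the contractile genes Cnn1 (−3.47), Tagln (−3.30) and Myl9, a myosin light chain (−2.63), and of Myocd, the coactivator myocardin (−2.85). In IGF-NS these genes were at −2.74, −2.53, −1.44 and −1.04. Between the treated sets Myocd (−1.81, adjusted p = 7.2e-05) and Myl9 (−1.19, adjusted p = 0.00024) were lower in PDGF-NS. Srf itself had 8.65 ± 0.535 FPKM in PDGF-NS and 7.82 ± 2.25 in IGF-NS, against 28.3 ± 8.37 in control (−1.56, adjusted p = 0.00074, and −1.72, adjusted p = 0.00079; chosen after its values were seen). Fhl2, a LIM-domain cofactor, had 6.72 ± 1.35 FPKM in PDGF-NS and 5.30 ± 1.62 in IGF-NS, against 44.5 ± 10.8 in control, and its IGF-NS change of −2.86 was the largest of the list there. Zyx, a focal adhesion protein, changed by −1.25 in PDGF-NS and −1.76 in IGF-NS. The 2 genes that were not called against control were Fos and Egr1, immediate-early factors, whose PDGF-NS libraries spread from 8.73 to 109 and from 70.7 to 339 FPKM, with library 3 highest in both. Between the treated sets Fos was at 2.17 (adjusted p = 0.0498), a call that was lost without any 1 of 5 of the 6 libraries (0.064 to 0.12). It was also lost with no filter (0.093), in a fit of only the 6 libraries (0.078) and without variances that follow the mean (0.057). All 8 calls of the 10 genes in PDGF-NS held without PDGF-NS library 3.

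**Figure D4:**
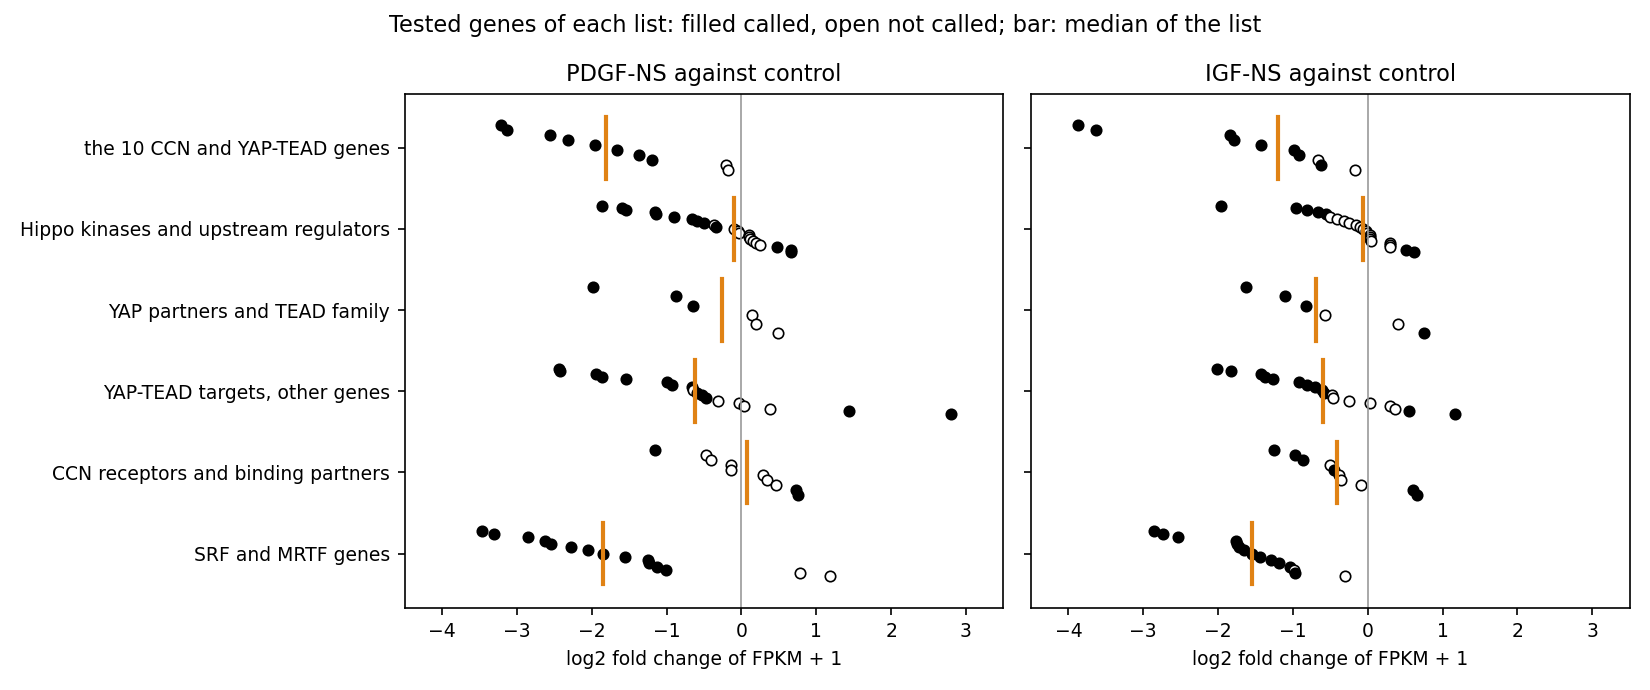
Log2 fold change of FPKM + 1 of each tested gene (1 point per gene) in 6 lists, PDGF-NS against control on the left and IGF-NS against control on the right. Filled points were called at an adjusted p under 0.05 and bars mark the median of a list. The medians of the 10 genes (−1.81 and −1.21) and of the SRF and MRTF genes (−1.85 and −1.54) lie furthest to the left, and the Hippo regulators have medians near 0.

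Markers of other cell types moved with the sets in part, and their part in the results was not tested. Of 9 endothelial markers 8 were below 1 FPKM in every library, and the list summed to 3.90 to 6.45 FPKM in PDGF-NS, 1.71 to 4.26 in IGF-NS and 7.59 to 9.19 in control, nearly all of it Erg. Of 10 cardiomyocyte markers 7 were below 1 FPKM in every library, and the list summed to 50.0 to 97.7 FPKM in PDGF-NS, 53.7 to 112 in IGF-NS and 515 to 865 in control. Most of that sum was Pln, phospholamban, which smooth muscle also expresses. Tnnt2, the other tested marker of that list, had means of 2.678 FPKM in PDGF-NS, 12.05 in IGF-NS and 14.98 in control. It was called lower in PDGF-NS (−2.15, adjusted p = 0.00259) and not in IGF-NS (−0.32, adjusted p = 0.595). Between the treated sets Tnnt2 was lower in PDGF-NS (−1.83, adjusted p = 0.011). Of 9 fibroblast markers 8 were tested and 5 were called higher in each treated set. Over all tested genes 20.7% were called higher in PDGF-NS and 17.4% in IGF-NS. The fibroblast list summed to 4470 to 5504 FPKM in PDGF-NS, 7620 to 8771 in IGF-NS and 4412 to 5461 in control. Its largest part by mean was Col1a1, with 2018 FPKM in PDGF-NS, 3526 in IGF-NS and 2877 in control. Col1a1 was called in neither treated set against control (adjusted p = 0.14 and 0.42). Pericyte markers summed to 146 to 163 FPKM in PDGF-NS, 81.1 to 96.7 in IGF-NS and 57.8 to 79.0 in control, with Rgs5 listed at 0 in all 9. Most of that sum was Abcc9, with means of 139 FPKM in PDGF-NS, 57.5 in IGF-NS and 54.0 in control. Abcc9 was called higher in PDGF-NS (1.35, adjusted p = 8.3e-05) and not in IGF-NS (0.08, adjusted p = 0.69). Kcnj8 was called in neither treated set against control (−0.13 and 0.95). Leukocyte markers summed to 43.6 to 89.8 FPKM in PDGF-NS, 22.7 to 30.8 in IGF-NS and 18.0 to 27.0 in control, with Ptprc listed at 0 in all 9. Most of the leukocyte sum was Cd14, with means of 59.7 FPKM in PDGF-NS, 26.3 in IGF-NS and 23.5 in control. Of 7 leukocyte markers 2 were tested, and 5 were below 1 FPKM in every library. Both tested markers were called higher in PDGF-NS, Cd14 at 1.29 (adjusted p = 0.0028) and Cd68 at 1.83 (adjusted p = 0.015). Neither was called in IGF-NS against control. Cd68 was low, with 1.39 to 9.37 FPKM in PDGF-NS and a mean of 0.208 in control. Smooth muscle markers summed to 427 to 463 FPKM in PDGF-NS, 653 to 695 in IGF-NS and 2610 to 3727 in control. By mean Tagln was the highest of them in each set. Of 9 tested, 7 were called lower and 1 higher in PDGF-NS, and 6 lower and 0 higher in IGF-NS. Over all tested genes 10.2% and 7.48% were called lower. Des was the 1 called higher in PDGF-NS (1.30, adjusted p = 0.00037), and it was lower in IGF-NS (−0.95, adjusted p = 0.0037). Synpo2 was called in neither set against control.

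For each gene the 3 tested genes with the most similar log2(FPKM + 1) over the 9 libraries were taken by Pearson r, as a description. Because the sets differ, such values mostly reflect the pattern of the 3 sets. Ctgf was most like RGD1559864 (r = 0.99), Fhl2 (0.989) and Edn1, the endothelin-1 precursor (0.989), and Edn1 was also among those of Cyr61 (0.986). Edn1 had 2.84 FPKM in PDGF-NS, 1.65 in IGF-NS and 15.5 in control by mean. Nov was most like Lims2 (0.995), an adaptor of focal adhesions, with means of 10.8, 11.7 and 127 FPKM in PDGF-NS, IGF-NS and control. Amotl2 was most like Bmp3 (0.993), a BMP-family ligand, and Cnn1 (0.991), smooth muscle calponin, and Lats2 most like Tns1 (0.993), a focal adhesion tensin. Wisp1 and Tead1 shared Prkar2a (0.996 and 0.99), a regulatory subunit of protein kinase A. Ankrd1 was most like Cryab, a small heat shock protein (0.977). Wisp2 and Yap1, which were not called, had Stard9 (0.938) and Ppp1r37 (0.981) nearest.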

How the data were processed

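RNA was sequenced in 9 libraries, 3 per set, for which the labels' protocols name the SENSE mRNA kit v2 of Lexogen. The authors deposited FPKM per gene and library. GSNAP and Cufflinks were used per the submitters' processing notes, and their versions, the genome build and the annotation are not stated there. FPKM differ from counts, and count models were not used. Columns were assigned by the column name in each sample record. The value 999999999 in 10 cells of 4 genes was taken for a failed estimate, so these genes were dropped, and 2 duplicated all-zero rows of 26407 were removed. A listed 0 can be a failed estimate. Relative depth was read from genes under 0.2 FPKM in every library. Differences were tested with limma 3.58.1 (R 4.3.3) on log2(FPKM + 1) with variances that follow the mean, for genes averaging 1 FPKM or more, all 9 libraries in one fit with set as the only term. P-values are two-sided and were adjusted by the Benjamini-Hochberg method over 11376 genes. The log2(FPKM + 1) scale understates changes of low genes. The median of all genes was 0.13 in PDGF-NS and 0.15 in IGF-NS against control, which is part of every value given. With a pseudocount of 0.1 it was 0.15 and 0.17, and under median ratio scaling 0.01 in both. List genes are named when among the 4 largest called changes of a pathway list in a comparison, and further list genes were chosen after their values were seen. The 10 genes and all lists were chosen with earlier results of these data known. The procedure was run on simulated data with planted changes, independent normal noise and variances taken from the same fit. Such data do not imitate errors of FPKM or libraries that share a culture. Promoters are from RefSeq (GRCr8), matched by symbol or synonym. The table held 0 unmapped columns of values.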

Additional observations from a re-analysis of the deposited data

How the results depend on the processing

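Of 450 values of the 10 genes under alternatives (9 settings and 6 left-out libraries per comparison), 431 kept direction and side of the threshold, 9 lost a call, 6 gained one and 4 changed sign, and the 8 called genes against control were called in all of them. The cause of these changes was not tested. The sign changes were those of Yap1 in IGF-NS against control (0.02 without control library 1 and 0.05 without IGF-NS library 2, range −0.42 to 0.05), of Yap1 in PDGF-NS against IGF-NS (0.22 without IGF-NS library 3, range −0.26 to 0.22) and of Wisp2 in PDGF-NS against control (0.01 without PDGF-NS library 2, range −0.38 to 0.01). With libraries left out, the 10 genes gave 8 calls throughout against control, and 0 to 3 between the treated sets. Rescaling to one common sum gave 5 calls between the treated sets in place of 3. Over all genes, leaving out 1 library gave 2360 to 3136 calls in PDGF-NS against control (3521 with all), 1752 to 2957 in IGF-NS against control (2827) and 1009 to 1592 between the treated sets (1807). The lowest were without PDGF-NS library 3, IGF-NS library 1 and PDGF-NS library 3, and without PDGF-NS library 2 the last comparison gave 1193.

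In PDGF-NS against control 66.9% of calls were higher, against 51.0%, 50.3% and 49.1% under median ratio scaling, one common sum and quantile normalization. In IGF-NS against control 69.9% were higher, against 48.4%, 68.2% and 50.9%. Between the treated sets 52.5% were higher, against 56.1%, 33.2% and 50.5%. The replicate block gave 8, 9 and 3 calls among the 10 genes, the ninth being Wisp2 in IGF-NS (−0.66, adjusted p = 0.034), and 3221, 2457 and 1530 over all genes. Deviations of same-numbered libraries correlated with −0.276 to 0.253, not all above 0.1, so the numbers were not used to pair samples, and whether libraries share a culture or batch is unknown. Depth is unknown, and intervals for Yap1 and Wisp2 leave changes undetected at this spread.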
